A study of Mus musculus with 6 samples.

Results

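Me1, Cyb5r4 and Morf4l1, genes of 1 stretch of mouse chromosome 9, have processed pseudogenes on other chromosomes. The levels of Gm7049, Gm11868 and Morf4l1-ps1 stood apart between control and knockout fat, and those of Gm7329 overlapped. A gene lying between Me1 and Morf4l1, Zfp949, is described with them. The 8 genes are these parents, their pseudogenes Gm7049, Gm7329, Gm11868 and Morf4l1-ps1, and Zfp949, out of 36144 gene symbols in the deposited gene table. They were listed by symbol for their pattern in the counts of these same libraries, so the genotype contrast of each is a description and carries no test. The study asked what loss of the transcription factor C/EBPα does to white fat. Whole inguinal white adipose tissue, a fat depot under the skin, was taken from 10-week-old female mice on a C57BL6/J background, fed chow at will, with both depots of a mouse extracted together after removal of the lymph nodes. All mice carried Cebpa_fl/fl, the floxed Cebpa allele, and the 3 Cebpa_ASKO mice also carried AdipoQ-Cre, while the 3 Cebpa_fl/fl control mice did not. Cre under the Adipoq promoter acts in adipocytes late in their differentiation, so other cells of the depot keep Cebpa. Each library came from 1 mouse, was selected for poly-A RNA, and carried batch label 1.

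A processed pseudogene is a DNA copy of a spliced messenger RNA that was written back into the genome, so it lacks the introns of its parent and usually the parent's promoter. Many are silent, and some are transcribed where they landed. Because the copy and the parent share most of their sequence, a sequencing fragment can often be placed on either, and a program such as kallisto divides such fragments between them by likelihood. Me1 encodes the cytosolic malic enzyme, which makes NADPH for fatty acid synthesis in fat and liver. Cyb5r4 encodes a flavohaem reductase that joins a cytochrome b5 domain to a cytochrome b5 reductase domain. Morf4l1 encodes MRG15, a chromodomain protein of histone acetyltransferase and deacetylase complexes, and Zfp949 encodes a zinc finger protein.

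All positions are of build GRCm38. Me1 lies at chr9:86581371-86695953 on the minus strand, Cyb5r4 at chr9:87022014-87077774 on the plus strand, Zfp949 at chr9:88548020-88571061 on the plus strand and Morf4l1 at chr9:90091665-90114774 on the minus strand, so the 4 genes span 3.53 Mb. The pseudogenes each have 1 exon and lie far away: Gm7049 at chr13:62813076-62814787, plus strand, Gm7329 at chr1:65095227-65095436, plus strand, Gm11868 at chr4:18844202-18845679, minus strand, and Morf4l1-ps1 at chr16:24529394-24530362, plus strand. Morf4l1-ps1 lies within the gene Lpp on the same strand and 1.37 Mb from Adipoq. Gm7049 overlaps Gm48795 and Gm11868 overlaps Gm11867, both on the opposite strand and neither among the genes of the deposited tables.

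The alignment of Gm7049 spanned almost the whole coding sequence of Me1, 1714 of 1716 bases from 14 exons, at 98.4% identity. It held 21 single-base differences and 3 gaps of 6 bases in all. Gm7329 matched only 210 bases of the end of the Me1 coding sequence, with 2 differences. The alignment of Gm11868 spanned 93.6% of the Cyb5r4 coding sequence at 98.0% identity, with 23 single-base differences and 1 gap of 7 bases. Morf4l1-ps1 equalled the whole 969-base coding sequence of Morf4l1-202 except at 2 bases, C519T and C957T, where the parent base is given first and the position counts from 1 at the 5′ end of the pseudogene. The stretches below are shown because they hold the bases by which a fragment can be given to a copy or to its parent, with the differing bases in capitals. The Gm7049 stretch is chr13:62813556-62813615, plus strand, against exon 5 of Me1 at chr9:86650927-86650986, minus strand, and the differences are G497A, G510A and C525T. The Gm7329 stretch is chr1:65095227-65095286, plus strand, against exons 13 and 14 of Me1, and the differences are G17A and G24C. The Gm11868 stretch is chr4:18845518-18845577, minus strand, against exons 2 and 3 of Cyb5r4, and the differences are T108C, C141T and C149T. The Morf4l1-ps1 stretch is chr16:24529882-24529941, plus strand, against exons 8 and 9 of Morf4l1, and the difference is C519T.
Gm7049: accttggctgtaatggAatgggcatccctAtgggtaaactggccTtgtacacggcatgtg
Me1: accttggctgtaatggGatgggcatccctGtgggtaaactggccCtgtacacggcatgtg
Gm7329: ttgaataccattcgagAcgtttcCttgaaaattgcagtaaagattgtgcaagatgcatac
Me1: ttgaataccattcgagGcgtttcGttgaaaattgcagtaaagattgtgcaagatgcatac
Gm11868: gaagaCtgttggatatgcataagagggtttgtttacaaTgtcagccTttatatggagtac
Cyb5r4: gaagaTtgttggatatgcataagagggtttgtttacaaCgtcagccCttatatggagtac
Morf4l1-ps1: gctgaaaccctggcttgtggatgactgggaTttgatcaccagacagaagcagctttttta
Morf4l1: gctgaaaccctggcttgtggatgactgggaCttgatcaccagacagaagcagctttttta

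The number of words of 31 bases, kallisto's usual word length, that a pseudogene shares with no other gene sets how well it can be told from its parent. Gm11868 had 610 such words of 1448 and Gm7049 had 584 of 1682. Morf4l1-ps1 had only 44 of 939, all of them around its 2 differences, and shared words with 11 other genes, so its counts are uncertain. Gm7329 had 24 of 180. The bases of the fragments themselves are not in the deposited estimates, so whether the fragments counted for a pseudogene came from it was not tested. A fragment from a parent allele that differed from the reference transcript at these bases could be assigned to the pseudogene in the same way. The levels and shares below are therefore of what kallisto assigned to each sequence.

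**Figure D1:**
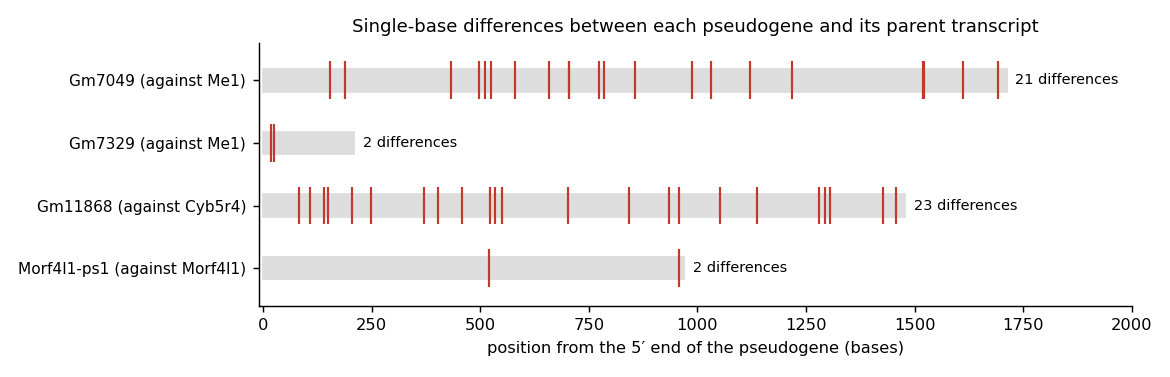
Each grey bar is 1 pseudogene drawn to its length in bases from its 5′ end, and each red line is a single-base difference from the parent transcript. Gm7049 has 21 differences and Gm11868 has 23 spread along the bar, while Morf4l1-ps1 has 2 and Gm7329 has 2 near its 5′ end. The alignment gaps of Gm7049 and Gm11868 are not drawn.

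The targeted gene went with the genotype labels. Cebpa stood at 448, 465 and 498 CPM (estimated counts relative to the scaled size of the library) in the controls and at 37.7, 45.8 and 37.2 CPM in Cebpa_ASKO, which is 8.55% of the control mean. Total estimated counts ran from 46237121 to 49477671 in the controls and from 33141769 to 42243013 in Cebpa_ASKO. The 10 adipocyte markers were all present and summed to 33830 to 41633 CPM in the controls and 10064 to 12462 CPM in Cebpa_ASKO. Of the 10, edgeR called 6 lower in the knockout, Retn and Cfd the furthest. DESeq2 called 9 of them lower, and 9 were lower with an unadjusted p below 0.05. Over all 16069 tested genes 3185 had an unadjusted p below 0.05, and DESeq2 called 1802 genes in all. Markers of other tissues were counted as well. Of 10 skeletal muscle markers edgeR called 9 higher, with sums of 571 to 767 CPM in the controls and 1919 to 5534 CPM in Cebpa_ASKO. Mammary epithelium markers summed to 621 to 1273 CPM against 1635 to 1800 CPM, and of 8 none passed edgeR's test, though 6 had an unadjusted p below 0.05 and DESeq2 called 3. Lymphocyte markers summed to 487, 107 and 70.5 CPM in controls 1, 2 and 3 and to 67.2 to 89.5 CPM in Cebpa_ASKO, with overlap and with control 1 far above the rest, and of 7 tested none passed edgeR's test, 6 had an unadjusted p below 0.05 and DESeq2 called 2. The part of these tissues in the values below was not tested. In whole tissue, fewer cells of a type and less RNA per cell cannot be told apart.

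Gm7049 was near 0 in every control and at a clear level in every knockout. It stood at 0.200, 0 and 0.127 CPM in the controls and at 20.8, 19.7 and 16.4 CPM in Cebpa_ASKO, from 9.41, 0 and 5.89 estimated counts against 656, 771 and 729.9. The genotypes did not overlap, and the ratio of the means, 0.109 ± 0.101 CPM (SD, n = 3) and 19.0 ± 2.29 CPM, was 174. The fitted log2 fold change was 7.42 with a standard error of 0.59. With so few counts in the controls this value follows the scale used, and it was 3.90 on log2(TPM + 1).

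Gm11868 had no estimated count in any control, where 3 counts over the group would be 0.0215 CPM. It stood at 3.39, 2.50 and 3.59 CPM in Cebpa_ASKO, from 107, 98.1 and 160.4 estimated counts, so its mean of 3.16 ± 0.58 CPM was at least 147-fold higher than in the controls. That limit covers counting error only.

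Morf4l1-ps1 was present in both genotypes. Its level was 11.8, 10.7 and 11.2 CPM in the controls and 43.5, 35.7 and 44.5 CPM in Cebpa_ASKO, with no overlap. The means were 11.2 ± 0.561 and 41.3 ± 4.82 CPM, a ratio of 3.68 and a fitted log2 fold change of 1.88 with a standard error of 0.11.

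Gm7329, the short copy of the end of Me1, did not follow the other pseudogenes. It stood at 0.334, 0.403 and 1.44 CPM in the controls and at 0, 0 and 0.471 CPM in Cebpa_ASKO, and the genotypes overlapped. Its highest value was in control 3, the library with the highest Me1. The fitted log2 fold change was -2.08 with a standard error of 1.254, and without control 3 it was -1.11.

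Among the parents, Me1 stood at 1249, 478 and 2511 CPM in the controls and at 506, 477 and 406 CPM in Cebpa_ASKO. The controls ran from 478 to 2511 CPM, control 2 lay among the knockouts, and the genotypes overlapped. The fitted log2 fold change was -1.61 with a standard error of 0.54, and it was -0.90 without control 3.

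Cyb5r4 stood at 43.7, 43.1 and 34.4 CPM in the controls and at 33.5, 31.3 and 33.0 CPM in Cebpa_ASKO. The genotypes did not overlap, but control 3 lay just above the highest knockout. The fitted log2 fold change was -0.31 with a standard error of 0.11. It was -0.06 on log2(TPM + 1), and in TPM the genotypes overlapped, at 23.8, 24.1 and 16.8 against 20.5, 18.8 and 22.1. The 2644-base transcript Cyb5r4-201 was at 17.7 ± 2.13 TPM in the controls and 13.9 ± 1.47 TPM in Cebpa_ASKO, without overlap. The 905-base Cyb5r4-203 made 14.1 ± 11.1% and 29.3 ± 9.13% of the gene's TPM, and its TPM overlapped.

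Morf4l1 stood at 280.3, 321 and 271 CPM in the controls and at 290.4, 269 and 280.1 CPM in Cebpa_ASKO. The genotypes overlapped, and the fitted log2 fold change was -0.06 with a standard error of 0.11. Per length, on the TPM scale, the order in the controls was Me1 at 539 ± 401, Morf4l1 at 214 ± 30.4, Cyb5r4 at 21.6 ± 4.14, Morf4l1-ps1 at 16.8 ± 0.149, Gm7329 at 15.7 ± 13.2, Zfp949 at 6.13 ± 1.14 and Gm7049 at 0.083 ± 0.077 TPM (SD, n = 3), with Gm11868 at 0. In the controls the libraries overlapped between Me1 and Morf4l1, between Cyb5r4 and Morf4l1-ps1, between Morf4l1-ps1 and Gm7329, and between Gm7329 and Zfp949, so these neighbours did not differ beyond their spread. Morf4l1 was the most abundant of the 8 in Cebpa_ASKO at 215 ± 10.96 TPM. It was followed by Me1 at 183 ± 12.3, Morf4l1-ps1 at 64.6 ± 8.26, Cyb5r4 at 20.4 ± 1.64, Zfp949 at 15.4 ± 2.24 and Gm7049 at 15.2 ± 1.21 TPM. The last pair did not differ beyond their spread, and Gm7329 at 3.66 ± 6.34 and Gm11868 at 3.00 ± 0.586 TPM stood lowest and overlapped.

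Zfp949 stood at 12.5, 13.1 and 13.6 CPM in the controls and at 34.6, 36.7 and 32.3 CPM in Cebpa_ASKO. Every knockout lay above every control, at means of 13.1 ± 0.545 and 34.6 ± 2.17 CPM, and the fitted log2 fold change was 1.40 with a standard error of 0.09.

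Of the 8 genes, 4 passed edgeR's quasi-likelihood test at a Benjamini-Hochberg adjusted p below 0.05, all higher in Cebpa_ASKO, where 5.23% of 16069 tested genes passed and 1.39% passed in that direction and 3.84% in the other. The genotypes did not overlap for 5 of the 8, against 26.1% of all tested genes. The genes were chosen on this contrast, and nothing is read from either count.

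**Figure D2:**
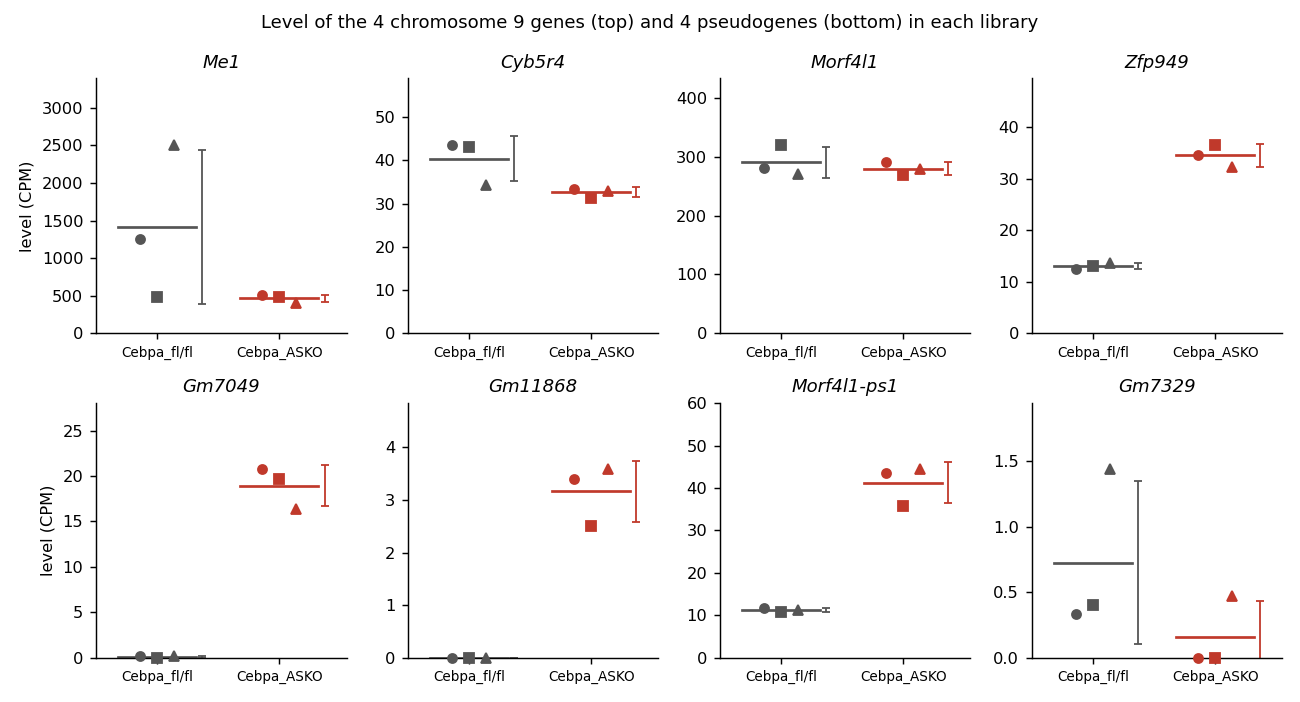
Level in CPM of the 4 chromosome 9 genes (top) and the 4 pseudogenes (bottom), with 1 point per library (circle, square and triangle for replicates 1, 2 and 3), a line at the mean and a bar of 1 SD beside it, controls in grey and Cebpa_ASKO in red. Gm7049 and Gm11868 lie at or near 0 in the controls, Morf4l1-ps1 and Zfp949 lie higher in every knockout, and the Me1 controls run from 478 to 2511 CPM.

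Since fragments of a family are divided among its copies, the share of a pseudogene in the estimated counts of its family was computed in each library. Gm7049 took 0.0168%, 0% and 0.00497% of the Me1 family in the controls and 3.95%, 3.96% and 3.87% in Cebpa_ASKO. The 3 knockouts lay close together, and their mean was 3.93 ± 0.0477% (SD, n = 3).

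Gm11868 took 9.17%, 7.41% and 9.84% of the Cyb5r4 family in Cebpa_ASKO and 0% in each control. Morf4l1-ps1 took 4.03%, 3.22% and 3.97% of the Morf4l1 family in the controls and 13.0%, 11.7% and 13.7% in Cebpa_ASKO. For Gm7049, Gm11868 and Morf4l1-ps1 the genotypes did not overlap. Gm7329 took 0.0269%, 0.0846% and 0.0572% of the Me1 family in the controls and 0%, 0% and 0.110% in Cebpa_ASKO, with overlap.

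The sum of a parent and its pseudogenes does not depend on how fragments were divided among them. The Me1 family summed to 1249, 478 and 2512 CPM in the controls and 527, 497 and 423 CPM in Cebpa_ASKO, a fitted log2 fold change of -1.55 with a standard error of 0.54. The Cyb5r4 family summed to 43.7, 43.1 and 34.4 CPM against 36.9, 33.8 and 36.6 CPM, a log2 fold change of -0.18 with a standard error of 0.11, and in TPM the sign turned, to 0.13 on log2(TPM + 1). The Morf4l1 family summed to 292, 332 and 282 CPM against 334, 304 and 325 CPM, a log2 fold change of 0.09 with a standard error of 0.11. In all 3 sums the genotypes overlapped.

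In CPM, the mean of Gm7049 was 18.8 higher in Cebpa_ASKO while that of Me1 was lower by a difference of -949, which rests on controls 1 and 3. The mean of Gm11868 was 3.16 CPM higher while that of Cyb5r4 was lower by a difference of -7.80 CPM. The mean of Morf4l1-ps1 was 30.05 CPM higher while that of Morf4l1 differed by -10.97 CPM, less than the 26.7 CPM SD of the Morf4l1 controls.

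**Figure D3:**
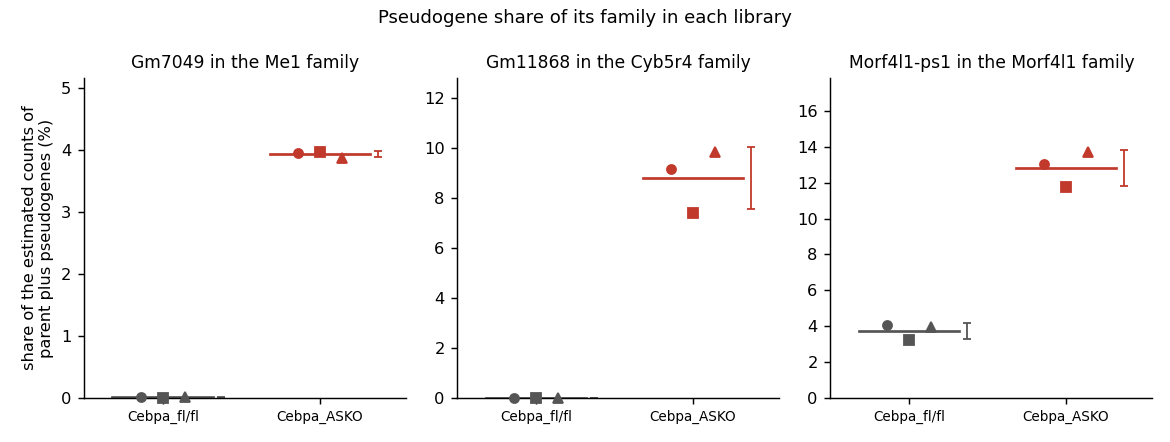
Share of each pseudogene in the estimated counts of its parent plus pseudogenes, in percent, 1 point per library (circle, square and triangle for replicates 1, 2 and 3) with the mean as a line and 1 SD as a bar. Gm7049 goes from at most 0.0168% in the controls to between 3.87% and 3.96% in Cebpa_ASKO, Gm11868 from 0% to between 7.41% and 9.84%, and Morf4l1-ps1 from between 3.22% and 4.03% to between 11.7% and 13.7%.

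Zfp949 has no pseudogene among the 8 genes, and its higher level in Cebpa_ASKO lay in 1 of its 5 transcripts. Zfp949-203 stood at 0.202, 0 and 0.693 TPM in the controls and at 10.9, 11.95 and 11.1 TPM in Cebpa_ASKO. Zfp949-204 stood at 3.799, 4.68 and 3.73 TPM in the controls and at 1.77, 2.896 and 2.38 TPM in Cebpa_ASKO. The genotypes did not overlap for either transcript, and the 2 lay in opposite directions.

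Zfp949-203 made 4.54 ± 4.80% of the Zfp949 TPM in the controls and 74.0 ± 6.89% in Cebpa_ASKO, and Zfp949-204 made 67.9 ± 14.3% and 15.1 ± 1.72%. Both transcripts hold the same coding sequence of 1809 bases. Zfp949-203 starts 163 bases later and has 5 exons, lacking the 146-base exon 2 of Zfp949-204 at chr9:88552716-88552861, which is in the 5′ UTR. Their difference in estimated counts therefore rests on the fragments of the 5′ end.

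Among 11258 tested genes with at least 2 transcripts and at least 1 TPM in every library, 0.00888% had a transcript whose share moved by at least 50 percentage points with no overlap between genotypes. That is 1 gene, Zfp949. The measure and the 50-point limit were chosen after the values of Zfp949 had been seen, so its place is a description. Of the 10 other genes of the stretch that could be examined, none had such a change.

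**Figure D4:**
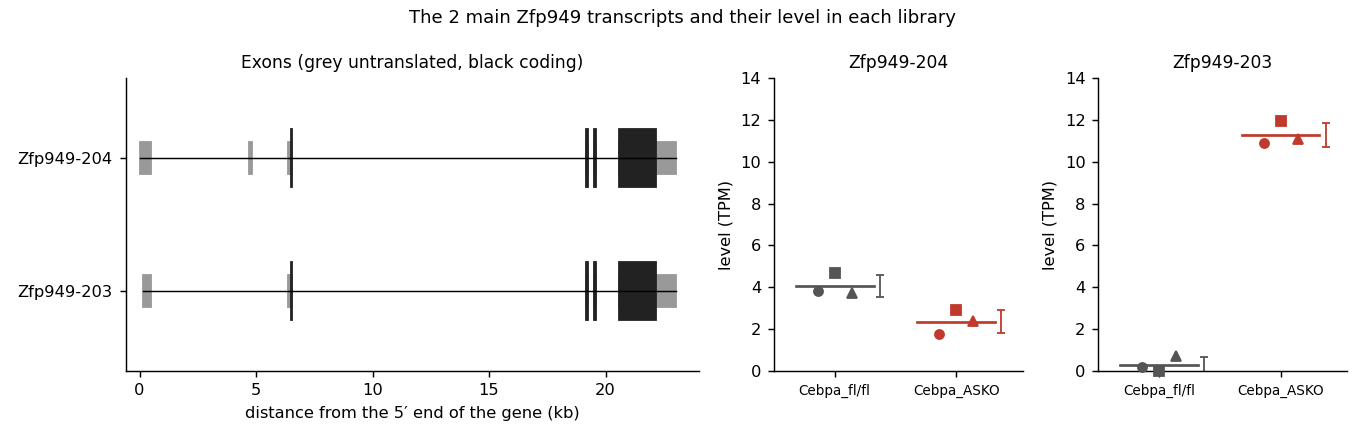
Left, exons of the 2 main Zfp949 transcripts by distance in kb from the 5′ end of the gene, with untranslated parts in grey and coding parts in black. Right, the TPM of each transcript in each library (circle, square and triangle for replicates 1, 2 and 3, line at the mean, bar of 1 SD), where Zfp949-203 stands between 10.9 and 11.95 TPM in Cebpa_ASKO and at most at 0.693 TPM in the controls.

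The other genes between Me1 and Morf4l1 were counted to see how the neighbourhood of the parents stood. Of 18 tested genes there, 1 passed edgeR's test, which is 5.56% beside 5.23% of all tested genes. It was Mrap2, which encodes an accessory protein of melanocortin receptors. Mrap2 stood at 0.111, 0.0636 and 0.191 CPM in the controls and at 0.666, 0.511 and 0.696 CPM in Cebpa_ASKO, and its log2 fold change was 2.33 with a standard error of 0.45 (edgeR, adjusted p = 0.0357). These are at most 30.6 estimated counts in a library, and the call was lost when any library but control 3 was left out.

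The genotypes did not overlap for 4 of the 18, or 22.2%, beside 26.1% of all tested genes, and the median log2 fold change of the 18 was -0.27 beside 0.02 over all tested genes. Among the 26 tested genes within 5 Mb on either side, edgeR called none, 5 had an unadjusted p below 0.05 and DESeq2 called 3. Over all 16069 tested genes 3185 had an unadjusted p below 0.05, and DESeq2 called 1802 genes in all. The genes nearest to Zfp949, which are Syncrip, Mthfsl and Snx14, had log2 fold changes of -0.26, -0.56 and -0.09 and did not pass edgeR's test (adjusted p = 0.137, 0.158 and 0.661). Syncrip, an RNA-binding protein, was called by DESeq2.

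The tested genes around the pseudogenes were read in the same way. Lpp, which contains Morf4l1-ps1, was at a mean of 112 CPM in both genotypes, a log2 fold change of 0.00 with a standard error of 0.11 (edgeR, adjusted p = 0.999). The next nearest tested genes, AC169509.1 and Bcl6, had log2 fold changes of 0.31 and 0.48 and did not pass. Near Gm7049, Fbp2, a muscle form of fructose bisphosphatase, was at 1.97 and 5.67 CPM (edgeR, adjusted p = 0.149, called by DESeq2), and Gm5141 and Platr25 had log2 fold changes of -0.07 and -0.14. The tested genes nearest to Gm11868 lay at least 551 kb away, measured between gene midpoints. They were Cngb3, Cpne3 and Rmdn1, with log2 fold changes of -2.08, -0.13 and 0.15. Of these 12 nearest genes edgeR called none, 4 had an unadjusted p below 0.05 and DESeq2 called 2. That unadjusted p was reached by 3185 of all 16069 tested genes, and DESeq2 called 1802 genes in all.

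**Figure D5:**
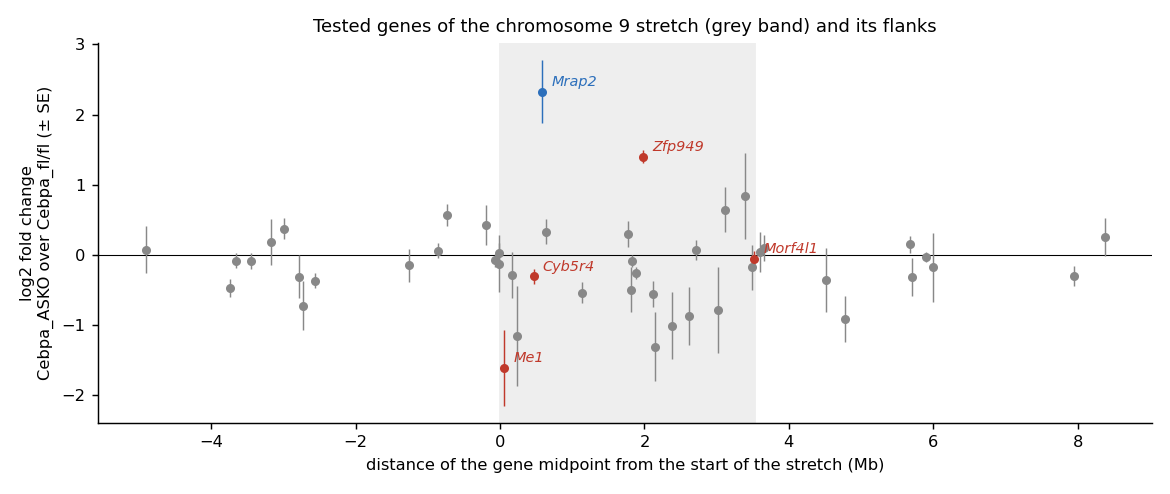
Log2 fold change of Cebpa_ASKO over Cebpa_fl/fl with its standard error for each tested gene, by the distance of its midpoint in Mb from the start of the stretch (grey band), with the 4 described genes in red and the 1 other called gene in blue. Zfp949 at 1.40 lies above neighbours that run from -1.31 to 0.84 apart from Mrap2.

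Gm7049, Gm11868 and Morf4l1-ps1 were set beside the other processed pseudogenes of the genome. With the 4 described here left out, 361 were tested and 4, or 1.11%, were called, all lower in Cebpa_ASKO. With them included, 7 of 365, or 1.92%, were called. The 4 outside the described genes were named after their values had been seen. Gm15519, a copy of Arfgap2, fell from a mean of 4.68 to 0.0861 CPM and Gm5578, a copy of Brox, from 2.09 to 0.235 CPM. These lie close together, at chr6:112563642-112565207 and chr6:112605544-112606779. Hspd1-ps4, a copy of Hspd1, fell from 24.1 to 1.59 CPM and Gm19680, a copy of Paox, from 15.4 to 6.49 CPM. The edgeR adjusted p of the 4 was 0.0317 or less. Paox itself was also called lower, at a log2 fold change of -1.15 (edgeR, adjusted p = 0.0017), beside -1.25 for Gm19680. Arfgap2, Brox and Hspd1 had log2 fold changes of -0.07, -0.17 and 0.05 and were not called. No other processed pseudogene was called higher by edgeR, 17 that were higher had an unadjusted p below 0.05, and DESeq2 called 5 higher.

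Protein-coding transcripts of the parents matched 9 processed pseudogenes that were not among the 8 genes, at 84.1% to 98.8% identity, and none passed the filter on low counts, the highest holding 12.4 estimated counts. All 9 matched Morf4l1, and none matched Me1 or Cyb5r4. Processed copies of the other stretch genes numbered 4, with at most 3.96 estimated counts, and none was tested. A wider search over all transcripts found 452 similar genes, of which 426 matched only through a non-coding transcript and 307 through the retained-intron transcript Cyb5r4-202. Of these, 273 were tested and 8 were called, among them Acadsb, Ctla2a, Hacd1, Lpl and Syne1, which were lower, and Sprr2a2 and Tnfrsf10b, which were higher.

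The genes that work with the parents were counted from lists. Of 17 genes of NADPH supply and the citrate-malate cycle, edgeR called 4 lower and 2 higher, and DESeq2 called 8. Over all 16069 tested genes edgeR called 3.84% lower and 1.39% higher, and DESeq2 called 1802 genes in all. The median log2 fold change was -0.37 beside 0.02 over all tested genes. Aldh1l1, which makes NADPH in folate metabolism, fell by 2.64 on the log2 scale (SE 0.22, edgeR adjusted p = 0.0017). Slc25a10, the mitochondrial dicarboxylate carrier, fell by 1.81, Pcx, pyruvate carboxylase, by 1.59, and Idh1, the cytosolic isocitrate dehydrogenase, by 1.11. Me3 and Idh2, both mitochondrial enzymes that make NADPH, rose by 1.63 and 0.73. The sum of the list over the controls was 7045, 3885 and 10104 CPM, in the same order of libraries as Me1.

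The counts of the next 2 lists stand beside edgeR calls for 5.23% of all 16069 tested genes and 1802 DESeq2 calls in all. Of 8 tested genes of cytochrome b5 and its reductases, edgeR and DESeq2 called the same 2 lower, with a median of -0.14. They were Por, the reductase of microsomal cytochromes P450, by 0.98 (edgeR, adjusted p = 0.0047) and Cyb5a, the microsomal cytochrome b5, by 0.79 (adjusted p = 0.022). Of 23 genes of the MORF4L1 complexes none was called by edgeR or by DESeq2 and 1 had an unadjusted p below 0.05, with a median of 0.00. At an edgeR share of 5.23%, nothing is read from the lack of a call among 23 genes. By mean CPM over the 6 libraries the highest of these 23 were Morf4l2 and Hdac1. Morf4l2, a close relative of Morf4l1, had a log2 fold change of 0.22 (SE 0.11) and Hdac1, a histone deacetylase, -0.02 (SE 0.10).

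For 7 of the 8 genes, the tested gene outside them with the nearest profile over the 6 libraries was taken, as the smallest Euclidean distance between log2(CPM + 0.5) values centred on their mean. For Zfp949 it was Gm9732, at a distance of 0.22, and for Morf4l1-ps1 it was Gm5799, at 0.43, both on chromosome 14. Gm9732 was at most at 0.0223 CPM in the controls and at 0.697, 0.740 and 0.651 CPM in Cebpa_ASKO, and Gm5799 was at 0 in the controls and at 0.951, 0.689 and 1.12 CPM. At such low levels the added 0.5 CPM sets the distance, and the fitted log2 fold changes of Gm9732 and Gm5799, 5.33 and 8.29, were far from the 1.40 of Zfp949 and the 1.88 of Morf4l1-ps1. Gm7049 was nearest to Camk2b, at 1.81, and Gm11868 to Cpne9, at 0.80. Me1 was nearest to Abcc8, at 0.66, which stood at 10.4, 4.47 and 17.2 CPM in the controls. As Abcc8 was chosen by this profile, nothing is read from its sharing the order of Me1 there. Cyb5r4 was nearest to Tmem256, at 0.11, and Morf4l1 to Aaed1, at 0.05.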

How the data were processed

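Paired-end poly-A libraries of whole inguinal fat from 3 Cebpa_fl/fl and 3 Cebpa_ASKO mice were analysed from the processed tables. The authors quantified them with kallisto 0.44.0 against mouse transcripts, and deposited estimated counts and TPM (a level relative to transcript length and library size) for each transcript and a table of TPM per gene. No aligned position is given, and the sources used here do not give the role of each named genome build. Estimated counts were summed per gene symbol, rounded, and tested with edgeR 4.0.16 (R 4.3.3, filterByExpr, TMM scaling, quasi-likelihood test, Benjamini-Hochberg adjustment at 0.05). DESeq2 1.42.0 and limma 3.58.1 on log2(TPM + 1) were among the 16 alternatives. Identifiers were matched to GENCODE M21, and 116816 of 118489 transcripts had one, carrying at least 99.5% of the counts in every library. Positions, exons and sequences came from that annotation, and pseudogenes were aligned to parents with BLAST 2.17.0. The fit was tested on simulated data. The 8 genes and all gene lists were chosen with earlier results of these data known. Each library is 1 mouse, so p-values measure the spread between mice. The named genes were the 8 genes, Cebpa, called genes of the stretch, the 3 nearest tested genes to each called gene, called copies, 1 nearest profile per gene, and of each list the called genes up to 6 or the 2 most abundant. The floor given for Gm11868 covers counting error only, while the SDs and standard errors include the spread between mice. The nearest profile of Gm7329 and 1 called copy are not reported here.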

Additional observations from a re-analysis of the deposited data

How the results depend on the processing

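The direction of Gm7049, Gm11868, Morf4l1-ps1 and Zfp949 was the same in every alternative that gave a value; Gm7049, Gm7329 and Gm11868 gave none with at least 10 counts in every library. The cause of the changes below was not tested. Genes called were 840, against 1802 with DESeq2, 359 with limma on log2(TPM + 1) without a filter, 370 with the replicate block and 311 to 922 when 1 library was left out. Other stretch genes called were 1, against 3 with DESeq2, 0 with the replicate block, 0 with all genes of at least 1 count, 0 with at least 10 counts in every library, 0 with limma on log2(TPM + 1) or log2(TPM + 0.1), and 0 to 1 when 1 library was left out. Flank genes called were 0, against 3 with DESeq2 and 0 to 1 when 1 library was left out. Other processed pseudogenes called were 4, against 12 with DESeq2, 2 with at least 10 counts in every library, 8 with limma without a filter and 3 to 6 when 1 library was left out. Same-numbered libraries correlated at 0.07, 0.03 and -0.20 in their deviations, and libraries of unlike number at -0.18 to 0.15. No pairing by number was seen, but so few libraries cannot exclude one, and shared litters were not tested. With the replicate block the log2 fold change of Me1 was -1.31, of Gm7049 7.47, of Morf4l1-ps1 1.87 and of Zfp949 1.40. The Cyb5r4 family sum was 0.13 with limma on log2(TPM + 1), with and without a filter, 0.14 on log2(TPM + 0.1), -0.0070 with an effective length offset and -0.28 to -0.12 when 1 library was left out. The Morf4l1 family sum was 0.28 with each limma fit and 0.04 to 0.15 when 1 library was left out, and the Me1 family sum was -1.97 to -0.84, the latter without control 3. As a share of TPM, Gm7049 took 7.52% of its family in Cebpa_ASKO, Gm11868 12.7%, Morf4l1-ps1 7.35% in the controls and 23.1% in Cebpa_ASKO, and Gm7329 3.05% and 1.87%. At 95% identity 67 similar genes were found, 60 of them through Gm10163, itself a processed pseudogene of the stretch. Of the 67, 3 were tested and 0 called. With coding transcripts against processed pseudogenes, a choice made after seeing the data, 13 copies were found and 0 tested. Depth limits the values that rest on few counts, which are Gm7329, Mrap2 and the control values of Gm7049 and Gm11868. Leave-one-out ranges assume a group of 2 varies like the group of 3.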
